A study of Mus musculus with 16 samples.

Results

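The 9 genes described here are Msx1, Msx2, Alx1, Alx4, Lhx2, Lhx9, Lmx1b, Prrx1 and Prrx2, homeobox transcription factor genes of the limb and its surrounding mesenchyme. They are a list of named genes, and all 9 were found among the 29629 genes of the single-cell table and the 47729 genes of the tendon table. The single-cell samples were ScxGFP iPSCs, induced pluripotent stem cells of the mouse that carry a GFP reporter of the tendon factor Scx. They were made into mesodermal cells (T0) and then kept in 10 ng/ml TGF-β2, a signal that drives tendon differentiation, until day 3 (T3), day 6 (T6) or day 9 (T9). Each time point has 3 plates, and each of the 384 wells of a plate received 1 sorted, live cell. The other samples were bulk RNA of the Achilles tendon from mice aged 2 weeks, 2 Wt and 2 Scx-homoKO littermates, the latter carrying the Scx knockout. The iPSCs were 1 clone, reprogrammed from ScxGFP fibroblasts. Nothing in the labels says that the plates of a time point were separate inductions. The p-values between time points thus measure only the spread between plates. Those of wells compared within plates measure the spread left after each plate's own level is taken out. Those of the tendon measure the spread between its samples.

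Homeobox genes code for proteins that bind DNA through a homeodomain, a fold that reads short AT-rich sites. In the limb bud, Prrx1 and Prrx2 mark the mesenchyme that comes from lateral plate mesoderm, and Msx1 and Msx2 are repressors switched on by BMP signals in the distal and marginal mesenchyme and in the overlying ectoderm. Lhx2, Lhx9 and Lmx1b belong to the LIM homeodomain class: Lhx2 and Lhx9 act in distal outgrowth, and Lmx1b gives the limb its dorsal identity. Alx4 acts in the anterior limb bud and Alx1 in the mesenchyme of the face, and both are related to the fly gene aristaless.

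The homeobox sequence pairs 8 of these genes, and Lmx1b has at most 26 of 60 residues in common with any other member. The 180 bases that code for it are given for Prrx1 and Prrx2, the most abundant members, and capitals mark every base that differs between them. Positions are those of GRCm38, and each sequence is the coding strand, which is the minus strand for Prrx1 and the plus strand for Prrx2.
Prrx1: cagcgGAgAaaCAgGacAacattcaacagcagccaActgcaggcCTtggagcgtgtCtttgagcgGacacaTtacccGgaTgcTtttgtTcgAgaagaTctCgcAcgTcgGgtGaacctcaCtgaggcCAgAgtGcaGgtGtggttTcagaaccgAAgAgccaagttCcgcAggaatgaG
Prrx2: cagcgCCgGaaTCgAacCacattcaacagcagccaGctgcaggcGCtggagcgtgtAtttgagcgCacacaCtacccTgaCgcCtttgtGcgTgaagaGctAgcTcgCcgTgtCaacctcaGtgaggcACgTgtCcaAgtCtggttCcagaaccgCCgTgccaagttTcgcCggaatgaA

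The Prrx1 homeobox lies in exons 2 and 3 of 4, at chr1:163261840-163261977 and chr1:163257901-163257942. That of Prrx2 lies in exons 2 and 3 of 4, at chr2:30878454-30878591 and chr2:30879492-30879533. Prrx1 and Prrx2 share 142 of 180 bases, but 58 of the 60 coded residues are the same, so that most of the capitals above leave the protein unchanged. Lhx2 and Lhx9 share 143 bases and all 60 residues, and Alx1 and Alx4 share 138 bases and 55 residues. Between the pairs the match is lower: the Alx4 homeodomain has 42 residues in common with that of Prrx1 and 26 with that of Lhx2. The homeoboxes of Alx1, Alx4, Lhx2, Lhx9, Prrx1 and Prrx2 are all divided between 2 exons after base 138, and that of Lmx1b is spread over 3 exons.

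RefSeq promoter sequences of GRCm38.p6, from 250 bases before to 50 bases after a gene start, were found for 7 of the 9 genes, Alx1 and Alx4 being the exceptions. The letters TAATTA, which hold the core that many homeodomains bind and read the same on both strands, occur in 5.29% of 32851 such promoters. Among these genes they occur in Msx2 and Prrx1, shown on the coding strand with those letters in capitals. A match of letters is a description of the sequence and does not mark a bound site.
Msx2, chr13:53472731-53473030: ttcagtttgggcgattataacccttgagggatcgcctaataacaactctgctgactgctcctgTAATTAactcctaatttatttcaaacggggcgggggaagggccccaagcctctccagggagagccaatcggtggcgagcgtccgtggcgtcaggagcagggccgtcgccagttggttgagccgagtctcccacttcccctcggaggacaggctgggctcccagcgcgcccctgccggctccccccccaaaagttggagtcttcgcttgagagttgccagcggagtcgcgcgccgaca
Prrx1, chr1:163313601-163313900: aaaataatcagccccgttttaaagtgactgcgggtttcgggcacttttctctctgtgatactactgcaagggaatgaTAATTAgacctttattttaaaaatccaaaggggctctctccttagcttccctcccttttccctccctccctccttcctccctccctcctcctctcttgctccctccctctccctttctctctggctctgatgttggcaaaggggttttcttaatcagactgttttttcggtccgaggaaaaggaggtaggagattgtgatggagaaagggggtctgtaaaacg

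Wells with at least 200 detected genes were used, 4594 of 4608, and their median depth was 10175 unique molecular identifiers (UMIs, each standing for 1 captured mRNA molecule) at T0. The later medians were lower, 5703 for T3, 8794 for T6 and 7900 for T9. The same 384 cell barcodes were used on every plate. Levels are given as CPM, UMIs per 1000000 UMIs of the plate, and statements on overlap refer to them. Fold changes come from fits that also scale between libraries (TMM), so that they can differ from the ratio of the printed levels. CEL-Seq2 counts 1 tag near the 3′ end of each molecule, so that these levels need no correction for gene length. The T0 cells had been dissociated with trypsin alone and the later cells with collagenase as well. No untreated cells of the later days are among the samples. The dissociation, the days in culture and the treatment thus cannot be told apart in comparisons with T0. Within the later time points, plates stood apart by the share of reads that the study's mapping summary gives without a feature: the higher side held all 3 T0 plates, 1 T3 plate, 2 T6 plates and 1 T9 plate. Between plates of different later time points, deviations from the time point means correlated at 0.15 to 0.52 in the 13 pairs of the same side and at -0.56 to -0.17 in the 14 pairs of opposite sides.

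Before treatment, 7 of the 9 genes were readily detected and Prrx1 led them. Prrx1 stood at 368, 430 and 493 CPM in the 3 T0 plates, a mean of 431 ± 62.5 (SD, n = 3). Prrx2 followed with 119 ± 12.2 and Msx1 with 109 ± 6.50, and the spreads of these means overlapped. Msx2 had 63.2 ± 7.81, Lhx2 50.1 ± 13.5 and Alx4 40.7 ± 5.82, and the plate values of Lhx2 (36.9, 63.9 and 49.5) spanned those of both neighbours in part. Alx1 was lower at 18.0 ± 2.45, below every Alx4 plate. Lhx9, with 12 UMIs over the 3 plates, and Lmx1b, with 13, stood near 1 CPM (0.943 ± 0.429 and 1.03 ± 0.693). Such counts do not show absence, and the paper reports lateral plate markers, with Lmx1b among those assayed, as expressed in T0 cells by RT-PCR. Lhx9 and Lmx1b did not reach the minimum count for testing in the plates, so that the tests below cover 7 of the 9 genes.

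Msx1, Msx2 and Lhx2 dropped within the first 3 days, while Prrx1 and Prrx2 fell by far less and Alx1 rose. The plates hold different cells, so that a change within cells and a change in which cells were present cannot be told apart. Of the 7 genes tested, 5 were lower and 1 was higher at T3 than at T0 by edgeR's quasi-likelihood test on UMI sums per plate, with Benjamini-Hochberg adjustment at 0.05. In the same comparison 33.2% of all 13372 genes tested passed, 2279 higher and 2160 lower. The median log2 fold change was -1.0 over the 7 genes and 0.01 over all genes.

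Msx1 fell from 117, 106 and 105 CPM at T0 to 1.04, 8.11 and 6.62 at T3, and the time points did not overlap. This was a 17.1-fold drop (log2 fold change -4.10, SE 0.39, adjusted p = 3.51e-06). Msx1 stood at 1.02, 1.27 and 0.238 at T6, lower by the test than at T3 (log2 fold change -2.69, SE 0.60, adjusted p = 0.0201), and stood at 0.815, 0.321 and 2.32 at T9. All levels after T0 lie under the 16.5 CPM of Msx1 in T0 wells with at least 4 pluripotency genes, cells that should lack it. That value comes from plates where Msx1 was far more abundant. Wells of that kind held 4.96 CPM at T3, with Msx1 found in only 1 of 14 wells, and 0 at T6 (5 wells). Whether the step from T3 to T6 lies above background cannot be read from these values. The T6 and T9 levels rested on 9 and 11 UMIs in all, and the T6 call was lost without T3 plate 2 (adjusted p = 0.0655), T3 plate 3 (0.0892), T6 plate 1 (0.0689) or T6 plate 3 (0.0982). From T0 to T9 the drop was 68.3-fold (log2 fold change -6.09, SE 0.47, adjusted p = 2.42e-07), and the log2 value was -6.82 without T9 plate 3.

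Msx2, its paralog, fell from 72.1, 58.1 and 59.2 CPM to 4.16, 3.32 and 14.3 at T3 (log2 fold change -2.82, SE 0.46, adjusted p = 3.61e-04). T3 plate 3 held most of the T3 molecules, 41 of 58 UMIs, and without it the difference was -3.91 (adjusted p = 4.26e-05). Values of 3.33, 6.36 and 2.62 at T6 and of 2.44, 2.57 and 2.98 at T9 followed, and neither later step passed the test (adjusted p = 0.409 and 0.797). Msx2 thus ended 16.7-fold lower than at T0 (log2 fold change -4.06, SE 0.51, adjusted p = 2.11e-05), or by -5.00 on the log2 scale with the side of the split as a covariate.

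Among the LIM homeodomain genes, Lhx2 lost nearly all of its molecules. Its level was 36.9, 63.9 and 49.5 CPM at T0 and 2.60, 3.32 and 2.09 at T3, a 16.2-fold drop (log2 fold change -4.01, SE 0.38, adjusted p = 3.03e-06). At T6 each plate held 2 UMIs of Lhx2, and the further difference of -2.23 (log2, SE 0.60) missed the threshold (adjusted p = 0.0514); with DESeq2 it was 0.0379. At T9 the plates held 3, 0 and 2 UMIs, and over the whole course Lhx2 was 66.8-fold lower (log2 fold change -6.06, SE 0.46, adjusted p = 2.01e-07), with a log2 value of -6.76 without T9 plate 1. Lhx9 held between 8 and 12 UMIs at every time point, with plate levels from 0 to 2.60 CPM. Lmx1b had 13 UMIs at T0 and then 2 (T3), 0 (T6) and 3 (T9), and the count of 0 at T6 allows up to 0.267 CPM.

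The Prrx genes remained the most abundant members throughout. Prrx1 went from 368, 430 and 493 CPM to 195, 209 and 217 at T3, so that the time points did not overlap (log2 fold change -0.82, SE 0.18, adjusted p = 0.00310). Thereafter it stood at 237, 211 and 245 at T6 and at 212, 212 and 281 at T9, and neither step passed the test (adjusted p = 0.662 and 0.505). Mean CPM, without the scaling of the fits, went from 431 ± 62.5 at T0 to 235 ± 39.8 at T9. In the scaled fit the difference between T9 and T0 was smaller, -0.40 (log2, SE 0.18, adjusted p = 0.0790). It passed with the side of the library split as a covariate (-0.54, adjusted p = 0.00702), with DESeq2 (0.0398), without wells holding pluripotency or epithelial markers (0.0324 and 0.0401) and without T0 plate 1 (0.0417).

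Prrx2 fell from 133, 112 and 111 CPM to 38.0, 48.6 and 64.1 at T3 (log2 fold change -1.0, SE 0.21, adjusted p = 0.00219). It was 71.7, 69.7 and 74.0 at T6, above all T3 plates, but that step missed the threshold (log2 fold change 0.53, SE 0.21, adjusted p = 0.179). Once the side of the split entered as a covariate, the T6 value was 0.65 (adjusted p = 0.0112), and in the higher-side plates alone 0.71 (adjusted p = 0.0356). At T9 the plates held 43.7, 52.3 and 52.7, below all T0 plates (log2 fold change -0.76, SE 0.20, adjusted p = 0.00740).

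The Alx pair split. Alx1 rose from 16.3, 20.8 and 17.0 CPM at T0 to 26.5, 37.6 and 35.9 at T3, without overlap (log2 fold change 1.11, SE 0.22, adjusted p = 0.00185). It then fell to 17.9, 16.5 and 16.9 at T6 (log2 fold change -0.94, SE 0.23, adjusted p = 0.0300), a call lost without T3 plate 1 (adjusted p = 0.0559), T3 plate 3 (0.127), T6 plate 1 (0.111) or T6 plate 3 (0.120). At T9 it was 23.1, 24.4 and 21.2, above every T0 plate (log2 fold change 0.86, SE 0.22, adjusted p = 0.00660). Mean CPM of Alx1, without the scaling of the fits, went from 18.0 at T0 to 22.9 at T9. That rise was smaller than the one in the scaled fit, so the size of the T9 difference depended on the scaling. In the plates of the higher side alone, with 1 T9 plate, the scaled log2 difference was 0.40. Some exon bases of Alx1 are shared with the lincRNA gene Gm17028 on the same strand, and no other member shares exon bases with a neighbour.

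Alx4 did not follow its paralog. Its level was 34.4, 42.1 and 45.7 CPM at T0 and 20.3, 30.2 and 26.5 at T3, all lower than at T0, but the difference did not pass the test (log2 fold change -0.45, SE 0.35, adjusted p = 0.353). At T6 the values were 30.2, 14.6 and 28.8, and at T9 4.07, 3.53 and 18.9. Within T3, T6 and T9 every plate of the higher side of the library split stood above every plate of the lower side of the same time point; the part of the split in this was not tested. From T0 to T9 Alx4 fell 3.56-fold (log2 fold change -1.83, SE 0.38, adjusted p = 0.00140), in higher-side plates alone the value was -0.94 (adjusted p = 0.00951), and without T9 plate 3 it was -2.76 (adjusted p = 6.72e-06).

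**Figure D1:**
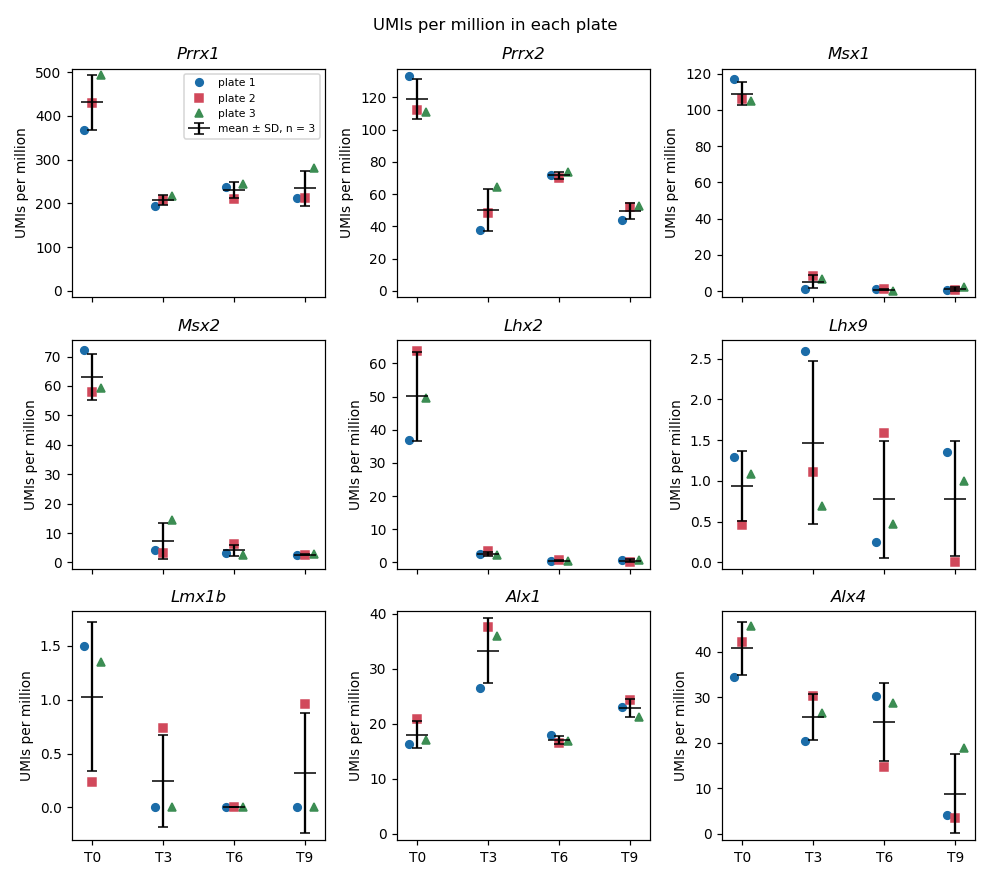
Level of each gene (y axis, CPM, scale set per gene) by time point (x axis); symbols are the 3 plates and black marks the mean ± SD. Msx1, Msx2 and Lhx2 drop to near 0 at T3, Prrx1 and Prrx2 settle above 30, Alx1 peaks at T3 between 26.5 and 37.6, and Lhx9 and Lmx1b stay under 3.

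From T3 onward changes were fewer. Of the 7 genes, 2 were lower at T6 than at T3 (Msx1 and Alx1), against 4.24% of all genes tested. Between T6 and T9 no member passed in edgeR, where 1.62% of all genes did. An unadjusted p under 0.05 was reached there by 2 members (Alx1 and Alx4) and by 15.7% of all genes, and DESeq2 called 1 member, Alx4 (adjusted p = 0.0411). Alx4 also passed without T6 plate 2 (-1.48, adjusted p = 0.0480), and without T9 plate 3 both Alx4 (-2.23, adjusted p = 0.00238) and Alx1 (0.89, adjusted p = 0.0333) did. Over the whole course, T9 against T0, 5 members were lower and 1 was higher, where 45.2% of all genes passed in either direction. The median log2 fold change over the 7 genes was then -1.83, and -0.02 over all genes.

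**Figure D2:**
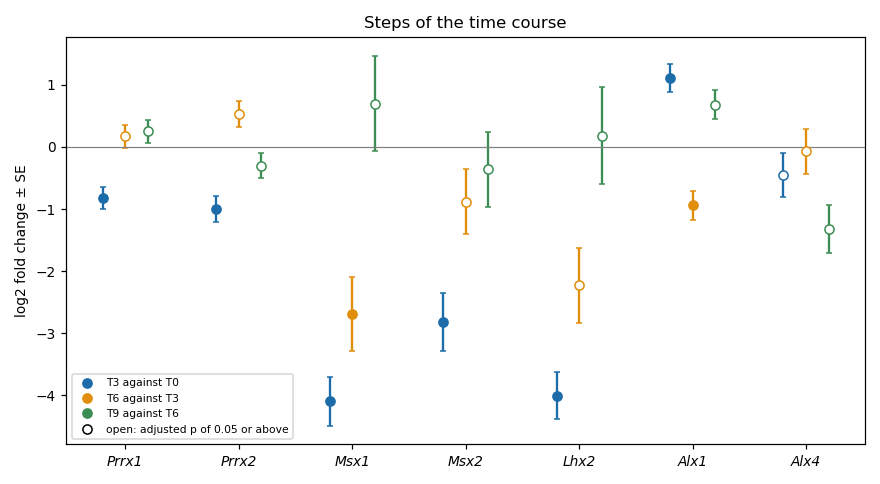
Log2 fold change (y axis, ± SE of the edgeR fit) of the 7 tested genes (x axis) at each step of the time course; filled circles passed the adjusted p threshold of 0.05. Filled symbols below 0 lie mainly in the T3 against T0 step, where Msx1 and Lhx2 are near -4, and Alx1 alone is filled above 0.

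The T3 calls were also made with the split of the libraries taken into account. With its side as a covariate, T3 against T0 gave -3.82 for Msx1, -3.79 for Msx2, -4.03 for Lhx2, -0.97 for Prrx1, -1.25 for Prrx2 and 0.89 for Alx1, all past the threshold (largest adjusted p = 0.00300). In all 15 alternatives tried, those 6 genes kept their call at T3 against T0. All T0 plates lie on the higher side, so that the covariate is estimated from the later plates only, and in fits of higher-side plates alone T3 and T9 have 1 plate each, assumed to vary like the others.

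Epithelial and pluripotency markers were also higher at T0, but not every list of another cell type was. Summed neural crest genes were at 31.6 to 36.3 CPM in T0 plates and at 37.2 to 55.1 in the others. Endothelial genes were at 12.6 to 16.5 CPM in T0 plates and at 15.1 to 99.8 in the others. The summed level of 7 epithelial genes was between 413 and 527 CPM in T0 plates and between 19.3 and 129 in the others, with all 7 detected in each T0 plate. That of 8 pluripotency genes was between 371 and 780 at T0 and between 0.332 and 296 later. The tenocyte list, 10 genes that include Scx and Tnmd, rose from between 1199 and 1288 at T0 to between 20705 and 51456 at T9. Leaving out the wells with UMIs of at least 3 of the epithelial genes (84 at T0), T3 against T0 was -4.20 for Msx1, -2.58 for Msx2 and -4.14 for Lhx2. Without the wells with UMIs of at least 4 pluripotency genes (73 at T0), it was -4.22, -2.89 and -4.10, and the calls of all 6 genes stood in both.

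Turning to single wells, Prrx1 was the most widely detected member at every time point. At T0, 80.0% ± 4.06 of wells held a Prrx1 UMI, 53.6% ± 4.45 a Prrx2 UMI and 40.5% ± 1.17 an Msx1 UMI (SD, n = 3 plates). Thinned to 3000 UMIs per well, which removes differences in depth and left out 76 shallower wells of T0, 113 of T3, 68 of T6 and 36 of T9, these shares were 62.1% ± 6.62, 27.9% ± 3.14 and 21.7% ± 1.11. Msx2 was then detected in 13.3% ± 1.11 of T0 wells, Lhx2 in 9.69% ± 2.53, Alx4 in 9.24% ± 0.151 and Alx1 in 5.98% ± 2.04.

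By T9 the thinned share was 40.6% ± 4.19 for Prrx1 and 13.6% ± 1.25 for Prrx2. Alx1, whose unthinned share was 12.4% ± 1.73 at T0 and 12.7% ± 1.99 at T9, had thinned shares of 7.78% ± 2.93 at T3 and 5.13% ± 0.414 at T9. The thinned share of Alx4 was 7.27% ± 1.19 at T3, then 5.78% ± 2.03 (T6) and 2.18% ± 1.48 (T9). For Msx1, Msx2 and Lhx2 the thinned shares after T0 lay between 0.181% and 1.72%.

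Wells with at least 4 pluripotency genes, a kind of cell that should lack mesenchymal factors, gave the background of such shares. At T0 there were 73 of them, with a median of 18066 UMIs, against 9647 in the 990 wells without either marker set. After thinning, Prrx1 was detected in 13.7% of the former and 69.5% of the latter, Prrx2 in 4.11% and 30.6%, Msx1 in 5.48% and 24.2%, Msx2 in 2.74% and 12.4%, and Lhx2 in 4.11% and 10.9%. The mean shares of Msx1, Msx2 and Lhx2 at each later time point were under these values, and 1 plate, T3 plate 3 with Msx2 in 3.68% of wells, was above. The background comes from T0 plates, where these genes were far more abundant, so that whether the remaining molecules of the later plates mark expressing cells cannot be read from it. Near that limit, 45 T0 wells held 3 pluripotency genes and 10 of the 73 held exactly 4.

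Wells were also counted by how many members they held, without a test. At 3000 UMIs, 17.5% ± 0.166 of T0 wells held UMIs of 3 or more of the 9 genes and 28.5% ± 2.02 of exactly 2. At T3 wells with 3 or more made up 1.22% ± 0.827, at T6 1.31% ± 0.470 and at T9 0.632% ± 0.317 (SD, n = 3). Wells with none of the 9 went from 19.9% ± 1.69 at T0 to 45.6% ± 7.94, 43.7% ± 4.13 and 47.8% ± 4.38. Wells with exactly 1 member made up between 34.2% and 43.6% at the 4 time points.

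**Figure D3:**
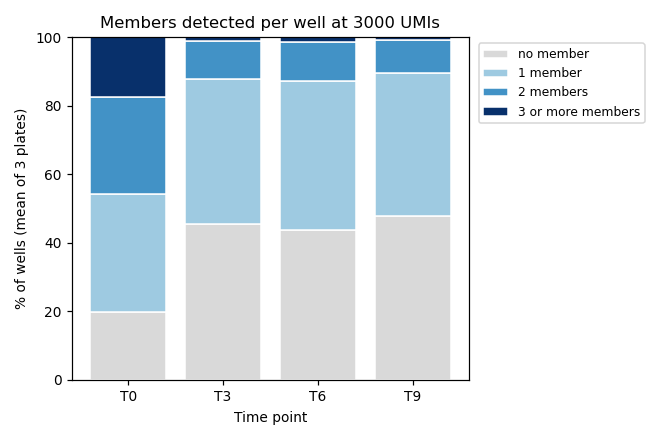
Share of wells (y axis, % of wells, mean of 3 plates) with UMIs of none, 1, 2, or 3 or more of the 9 genes at each time point (x axis), after thinning each well to 3000 UMIs. The share with 3 or more is 17.5% at T0 and under 2% later.

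Within T0, the cells that held Msx1 also held more Lhx2, Alx4, Prrx1 and Prrx2. To see this, the UMIs of wells with and without an Msx1 UMI were summed in each T0 plate, leaving out wells with at least 4 pluripotency genes, and compared by edgeR with the plate as a block (454 wells against 620). Of 6 other members tested, 4 were higher and none was lower in wells with Msx1, and 9.48% of all 10796 genes tested passed. Wells with Msx1 were deeper, with medians of 12446, 11259 and 9315 UMIs in the 3 plates against 9729, 9315 and 8479.

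Lhx2 reached 69.4, 108 and 83.7 CPM in wells with Msx1 and 16.1, 37.3 and 27.8 in wells without (log2 fold change 1.71, SE 0.15, adjusted p = 1.49e-12). Alx4 stood at 64.9, 72.9 and 79.1 against 13.6, 24.4 and 25.1 (log2 fold change 1.80, SE 0.16, adjusted p = 5.57e-12). The kinds of wells did not overlap for either gene, and after thinning the differences were 1.44 for Lhx2 and 1.34 for Alx4 (adjusted p = 4.74e-06 and 8.35e-04). Prrx1 was higher by 0.51 (SE 0.06, adjusted p = 9.52e-09) and Prrx2 by 0.61 (SE 0.09, adjusted p = 3.58e-06).

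Msx2 did not share this pattern. Its level was 77.9, 67.8 and 66.8 CPM in wells with Msx1 and 81.1, 62.7 and 57.1 in wells without (log2 fold change 0.09, SE 0.13, adjusted p = 0.772). Wells with Msx1 had 91.9, 74.6 and 96.6 CPM over the 7 epithelial genes and wells without had 869, 898 and 575. When the 84 wells with at least 3 epithelial genes were left out, Msx2 was higher in wells with Msx1 by 0.61 (adjusted p = 0.0106), and Lhx2, Alx4, Prrx1 and Prrx2 stayed higher, by 1.52, 1.6, 0.29 and 0.56.

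Those epithelial-marker wells were rich in Msx2. In the 3 T0 plates they held 165, 188 and 142 CPM of Msx2, against 67.1, 50.9 and 53.9 in the wells without either marker set, with no overlap. For Msx1 the order was opposite, 33.9, 37.5 and 20.2 against 147, 126 and 121. Prrx1 stood at 79.7, 128 and 169 in them and at 468, 517 and 561 in the others. Lhx2 had no more than 7.51 CPM in epithelial-marker wells of any plate. The wells were picked by a count of marker genes, which is a range and not a cell type: 30 of the 84 held exactly 3 of the genes and 121 further wells held 2.

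The same comparison for Msx2 gave calls that rested on the choice of wells and plates. Both this comparison and that of Msx1 were added after the data had been seen. In wells with Msx2 (319 against 755), Lhx2 was lower by 0.65 (log2, SE 0.18, adjusted p = 0.0230), Prrx1 by 0.29 (SE 0.07, adjusted p = 0.00549) and Alx1 by 0.92 (SE 0.28, adjusted p = 0.0480), where 4.07% of all 10806 genes passed. None of these 3 calls held with DESeq2, after thinning, or without the epithelial-marker wells, where the adjusted p was 0.556 for Lhx2, 0.800 for Prrx1 and 0.523 for Alx1. Without T0 plate 1 none of the 3 held either, and Msx1 was then higher by 0.52 (adjusted p = 0.00788), whereas without T0 plate 2 only Prrx1 held (adjusted p = 0.0154). Summed epithelial markers were 839, 1051 and 599 CPM in wells with Msx2 and 242, 251 and 244 in wells without.

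Detection within the same well gave the pairings in another form, at 3000 UMIs and without wells of either marker set. Lhx2 was found in 19.4% ± 4.35 of T0 wells with Msx1 and in 8.19% ± 3.02 of wells without, higher in 3 of 3 plates. Of wells with Alx4, 24.9% ± 5.75 held Lhx2, against 9.22% ± 2.74 of wells without, and 50.1% ± 11.5 held Prrx2, against 28.4% ± 3.81. Some other pairs were not higher together. Of wells with Msx2, 10.5% ± 9.49 held Alx4, against 10.5% ± 0.836 of wells without, and Alx1 was in 5.94% ± 5.69 of wells with Lhx2, against 7.04% ± 2.43. For Lhx2 and Msx2, 3.51% ± 1.52 of wells with Msx2 held Lhx2, against 11.9% ± 2.71 of wells without, higher in 0 of 3 plates. No test was made of these shares, which rest on 222 wells with Msx1, 96 with Alx4 and 114 with Msx2.

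Within plates, wells with an Scx UMI did not differ detectably from wells without in the 4 members that could be tested. Msx1, Msx2, Lhx2, Lhx9 and Lmx1b were under the filter. Scx was in 79.1% ± 2.60 of wells at T6 and 39.0% ± 6.79 at T9, so T9 wells without Scx may include cells that held it earlier. At T3, wells with an Scx UMI numbered 290, 322 and 321 in the 3 plates and wells without numbered 94, 61 and 63. Of 4 members that passed the filter, none was called by edgeR or DESeq2, where 0.426% of all 8917 genes were called in edgeR; an unadjusted p under 0.05 was reached by 1 member, Prrx2, and by 7.61% of all genes. Prrx2 had 42.4, 52.0 and 69.7 CPM with Scx and 21.8, 30.5 and 31.1 without (log2 difference 0.96, SE 0.31, adjusted p = 0.301). The kinds of wells did not overlap, but the wells without Scx held only 9, 13 and 13 UMIs of Prrx2.

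At T9, with 178, 128 and 141 wells with Scx against 204, 253 and 243, edgeR again called none of the 4 members, where 1.26% of all genes passed. DESeq2 called none and gave no adjusted p for 2 of the 4, and an unadjusted p under 0.05 was reached by Alx4 and Prrx2 and by 9.78% of all genes. Alx4 stood at 7.15, 5.71 and 27.5 CPM with Scx and 1.07, 2.42 and 12.9 without (log2 difference 1.40, SE 0.43, adjusted p = 0.182), higher with Scx in 3 of 3 plates. These levels of Alx4 rested on only 13, 6 and 34 UMIs with Scx and 2, 5 and 23 without. Prrx2 had 56.1, 75.2 and 47.7 against 31.7, 40.7 and 56.3 (log2 difference 0.49, SE 0.20, adjusted p = 0.427), and plate 3 went the other way. Without T9 plate 3, Prrx2 was higher with Scx by 0.85 (adjusted p = 0.00507) and Prrx1 by 0.40 (adjusted p = 0.0220). The change of the Scx difference from T3 to T9, tested directly, passed for none of 6 members in the edgeR fit (smallest adjusted p = 0.853).

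**Figure D4:**
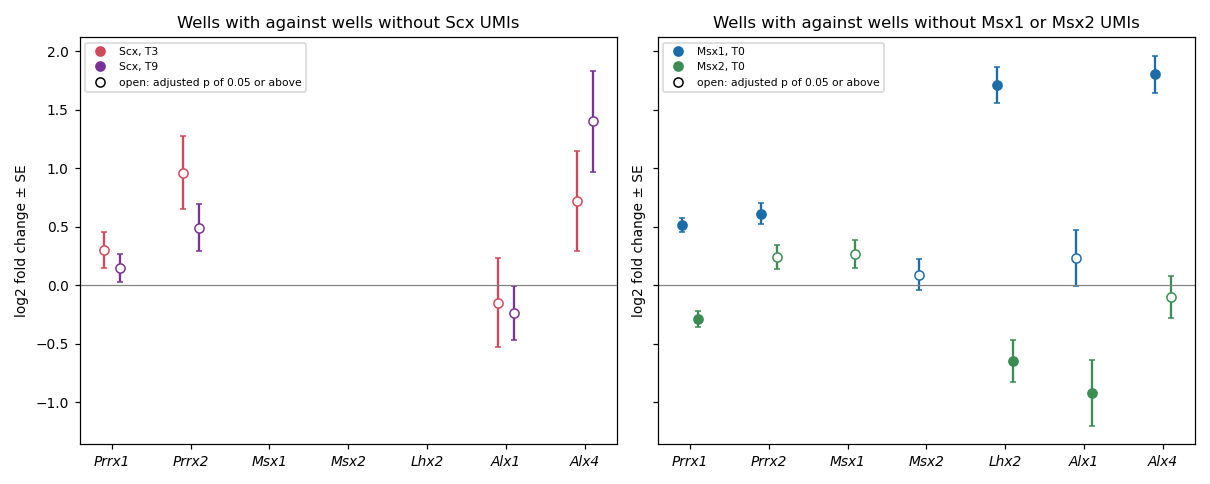
Log2 fold change (y axis, ± SE of the edgeR fit with plate as a block) between wells with and without a UMI of Scx at T3 and T9 (left) and of Msx1 or Msx2 at T0 (right) for each gene (x axis); filled circles passed the adjusted p threshold of 0.05 and genes under the filter have no point. No point is filled on the left, and on the right Lhx2 and Alx4 lie near 1.7 in wells with Msx1.

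In the tendon, the targeted gene checked the labels: Scx had 1151 and 996 reads in the Wt samples and 287 and 296 in the homoKO samples (log2 fold change -1.88, SE 0.17, adjusted p = 4.29e-04). Which part of Scx is deleted is not given in the sources used here. The samples held between 11188270 and 12398560 reads. Bulk tissue gives a sum over cells, so that fewer cells of a type and less RNA per cell cannot be told apart. No member passed the test between genotypes, in edgeR or DESeq2, among the 5 that passed the filter, while 3.84% of all 14602 genes did in edgeR. An unadjusted p under 0.05 was reached by 4 of the 5 and by 17.2% of all genes.

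Prrx1 was the most abundant member here too. Scaled to exon length, it had 14.5 and 13 reads per kilobase and 1000000 reads in Wt and 8.78 and 10.00 in homoKO tendon. Prrx2 followed with 6.15 and 6.16 in Wt and 8.76 and 6.54 in homoKO, and Msx1 with 1.56 and 1.34 and with 2.94 and 2.82. All others were under 1 on this scale.

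Without scaling to length, Prrx1 had 161 and 144 CPM (reads per 1000000 reads) in Wt and 97.1 and 111 in homoKO tendon, and the genotypes did not overlap (log2 difference -0.50, SE 0.15, adjusted p = 0.121). Msx1 stood at 4.83 and 4.16 in Wt and at 9.11 and 8.74 in homoKO, again without overlap (log2 difference 1.04, SE 0.35, adjusted p = 0.156). Alx4 had 15 and 23 reads against 60 and 62 (log2 difference 1.68, SE 0.52, adjusted p = 0.124), and Lhx2 7 and 4 reads against 17 and 27 (log2 difference 1.99, SE 0.86, adjusted p = 0.277). Lmx1b, which determines dorsal fate in the limb, had 4 and 2 reads against 13 and 8 and was under the filter. For Prrx2 the values were 12.1 and 12.1 against 17.2 and 12.8 CPM (adjusted p = 0.532). Msx2 had 34 reads in Wt sample 1 and 3 in each other sample. Alx1 and Lhx9 had no reads in any sample, which allows up to 0.268 CPM in the shallowest library.

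Markers of other tissues differed between the genotypes as well. Summed skeletal muscle genes were at 32899 and 59508 CPM in Wt and 77964 and 81670 in homoKO, with all 8 detected in each sample. The tenocyte list was at 174132 and 157661 against 88457 and 101977, the chondrocyte list (4 of 6 detected) at 783 and 713 against 41.9 and 25, and the neural list at 190 and 193 against 695 and 626. Epithelial genes were at 4.38 and 3.75 against 24.4 and 13.7, and a list of 8 epidermal genes, chosen after the values were seen, at 16.0 and 13.8 against 98.1 and 86.1. The part of these tissues in the values of Prrx1, Msx1, Alx4 and Lhx2 was not tested.

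**Figure D5:**
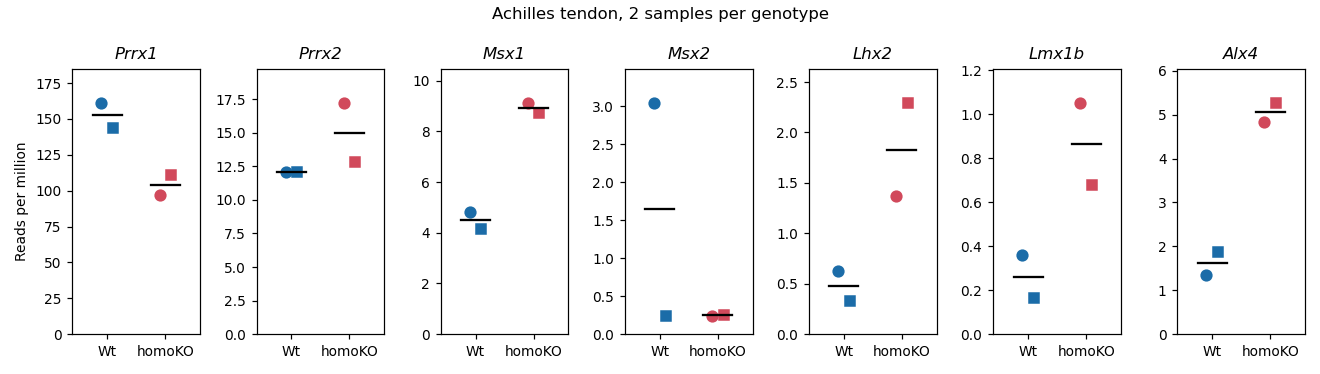
CPM (reads per 1000000 reads, y axis, from 0, scale set per gene) of the 7 genes with reads in Achilles tendon of Wt and homoKO mice (x axis); circles are sample 1, squares sample 2 and lines the mean of 2. Prrx1 is lower and Msx1, Alx4, Lhx2 and Lmx1b are higher in both homoKO samples; none of the 5 genes tested passed, and Lmx1b and Msx2 were under the filter.

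Across the 12 plates the levels of several genes rose and fell together. The parts of the time points and of the library split in this were not tested. As a description over plates that share time points and library sides, Pearson's r of log2 levels was 0.96 between Msx1 and Lhx2, 0.93 between Msx1 and Msx2, 0.91 between Lhx2 and Msx2 and 0.74 between Prrx1 and Prrx2. Alx1 went against every other member, with r between -0.65 and -0.43, and its r with its paralog Alx4 was -0.53. The 3 genes most like Lhx2 were Frzb, a secreted Wnt antagonist (0.989), Gata3, a zinc finger transcription factor (0.979), and Foxd1, a forkhead factor (0.977). Nearest to Msx1 were Cadps (0.982), Smyd5 (0.974) and Sst, which codes for somatostatin (0.970), and nearest to Msx2 were Ptpmt1 (0.955), Bend3 (0.953) and Phc1 (0.952).

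For Prrx1 the most alike were Mtap (0.941), Naf1 (0.939) and Dixdc1 (0.928), and for Prrx2 Mrpl58 (0.949), Rad23b (0.943) and Tmprss2 (0.941). Alx4 was closest to Zmiz1 (0.962), Arid2 (0.962) and Trmu (0.955). Alx1 was closest to Zfp958 (0.941), Fam221a (0.912) and Nsa2 (0.910).

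Related regulators were read from lists of named genes. Of 17 tested regulators of limb and lateral plate mesoderm, 7 were lower and 1 was higher at T3 than at T0, where 33.2% of all genes passed, with a median log2 fold change of -0.66 against 0.01 over all genes. The gene that was higher was Tcf21, a factor of mesenchymal progenitors (4.94, SE 0.29, adjusted p = 3.27e-08), and the largest drop was in Irx3, a homeobox gene of limb patterning (-3.23, SE 0.54, adjusted p = 4.90e-04). At T9, 13 of the 17 were lower than at T0 and 2 higher, where 45.2% of all genes passed. Of 6 tested regulators of paraxial mesoderm, the source of somites, 2 were higher and 2 lower at T3 (33.2% of all genes), led by Meox1 (2.98, SE 0.21, adjusted p = 1.96e-07) and Pax3 (-4.82, SE 0.73, adjusted p = 2.13e-04).

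Among 8 tested cofactors of LIM homeodomain proteins, 2 were higher and 3 lower at T3, against 33.2% of all genes. Ldb2, which links such proteins into complexes, was higher (1.9, SE 0.17, adjusted p = 1.91e-06), and Lmo1, a LIM-only protein that competes for the same partners, was lower (-3.74, SE 0.76, adjusted p = 0.00203). For the 12 tested genes of BMP signalling, the pathway that induces Msx genes, 2 were higher and 2 lower at T3, a share near the 33.2% of all genes, with a median of -0.18. The BMP antagonist Nog was higher (1.49, SE 0.27, adjusted p = 8.61e-04) and the inhibitor Smad6 lower (-1.26, SE 0.32, adjusted p = 0.00740).

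In wells with Msx1 at T0, 5 of 15 tested limb and lateral plate regulators were higher, against 9.48% of all genes called in either direction, most of all Shox2, a homeobox gene of the proximal limb (1.46, SE 0.27, adjusted p = 9.43e-05). One, Hand1, was lower (-3.03, SE 0.32, adjusted p = 4.07e-10), and in wells with Msx2 Hand1 was higher (3.47, SE 0.31, adjusted p = 5.11e-12). The summed epithelial genes went the same way as Hand1, at 74.6 to 96.6 CPM in wells with Msx1 against 575 to 898 without, and at 599 to 1051 in wells with Msx2 against 242 to 251 without, and their part in this was not tested. In homoKO tendon, where 3.84% of all genes passed, 1 of 14 such genes was higher, Shox2 (0.98, SE 0.17, adjusted p = 0.0143). Of 7 paraxial regulators 1 was higher, Meox1 (1.07, SE 0.16, adjusted p = 0.00663), and of 4 tested close paralogs of the members Shox2 was higher and Lhx8 lower (-4.59, SE 0.85, adjusted p = 0.0182).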

How the data were processed

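Single cells were sorted into 384-well plates and sequenced by CEL-Seq2, and poly(A) RNA of 4 Achilles tendons by a stranded kit. Per the labels, the authors aligned reads to GRCm38 with HISAT2 (2.2.1 for wells, 2.0.4 for tendon), counted genes with featureCounts (1.5.0 for tendon) and collapsed molecular identifiers with UMI-tools 1.0.1. The deposited values are raw counts, UMI counts per gene and well and read counts per gene and tendon sample. Doublets were gated out at the sort, and no doublet caller was run.

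Wells with at least 200 genes were kept and their UMIs summed per plate. Sums were tested with edgeR 4.0.16 (R 4.3.3): filterByExpr, TMM scaling and the quasi-likelihood test, with Benjamini-Hochberg adjustment over all genes tested at 0.05, all 12 plates in 1 fit. Wells with and without a UMI of Scx, Msx1 or Msx2 were summed separately with the plate as a block, and the gene that chose the wells was left out. Every adjusted p in the report is from these edgeR fits unless DESeq2 (1.42.0) is named. The fits were tested on simulated counts. CPM are counts per 1000000 counts of the library. Depth was 1921125 to 4657093 UMIs a plate and 11188270 to 12398560 reads a tendon sample, and limits from a count of 0 use 3 counts and cover counting error only. Of all UMIs, 0.0642% lay in 3 entries without a gene identifier, which were left out. Levels of the 9 members, the 3 genes most correlated with each over plates, and the most changed called genes of each list were named. The members and lists were chosen with earlier results of these data known. Alternatives were DESeq2, its size factors, no filter, a replicate block, the library split, 1000 genes a well, thinning to 3000 UMIs, 2 UMIs to call a well, and leaving out each replicate. Leaving out pluripotency- or epithelial-marker wells, the higher-side plates alone, and the comparisons by Msx1 and Msx2 were added after seeing the data. Some items of the sequences and lists are not reported here.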

Additional observations from a re-analysis of the deposited data

How the results depend on the processing

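Of the member log2 fold changes under all alternatives, 622 kept direction and side of the threshold, 33 lost and 21 gained a call, and 15 turned direction. No turned value had been called. Counts of all genes called moved in these settings, and the cause was not tested. T6 against T3 (567) gave 899 with DESeq2, 1010 without a filter, 1483 with the library split as covariate and 291 to 890 when a plate was left out. T9 against T6 (217) gave 568, 684 and 813 in those settings, 330 with higher-side plates alone and 35 to 852 without a plate. Scx at T3 (38) gave 21 with DESeq2, 115 without a filter, 7 without pluripotency-marker wells and 1 to 41 without a plate. Scx at T9 (129) gave 57, 264, 200 with 2 Scx UMIs and 45 to 282. Msx1 wells (1023) gave 210 with DESeq2, 97 thinned, 264 without epithelial-marker wells and 557 to 704 without a plate. Msx2 wells (440) gave 87, 69, 50, 221 with pluripotency-marker wells and 254 to 530. Tendon (560) gave 1415 without a filter.

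Members called are given with the count of all genes called in brackets. At T6 against T3, 2 (567) became 4 (1483) with the split and 0 to 2 (291 to 890) without a plate. At T9 against T6, 0 (217) became 1 with DESeq2 (568), without a filter (684) and with the split (813). Without a plate they were 0 to 2 (35 to 852). For Scx at T9, 0 (129) became 0 to 2 (45 to 282) without a plate. For Msx2 wells, 3 (440) became 0 with DESeq2 (87), thinned (69), with pluripotency-marker wells (221) and without epithelial-marker wells (50). They were 1 (404) with 2 UMIs and 1 to 3 (254 to 530) without a plate.

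Deviations of same-numbered plates correlated at -0.56 to 0.52 (18 pairs), and between later plates they followed the side of the library split. For same-numbered tendon samples the value was 0.07. With 2 samples per genotype the deviations mirror each other, so that this value cannot show pairing. Whether the numbers pair samples was thus not settled. With the replicate block, T6 against T3 called 1 member and 404 of all genes, T9 against T6 113 genes and tendon 1108. Without the block of the plate, Scx at T3 called 7 genes, Scx at T9 2, Msx1 wells 284, and Msx2 wells 145 with 0 members.

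Directions turned for Alx4 at T3 against T0 with the split (0.00) and at T6 against T3 with higher-side plates (0.09). Leaving out 1 plate turned Alx4 at T6 against T3 without T3 plate 3 (0.00) or T6 plate 2 (0.10; range -0.20 to 0.10) and Msx2 there without T3 plate 3 (range -1.46 to 0.21). At T9 against T6, Msx2 turned with higher-side plates (0.10) and without T6 plate 2 (range -0.66 to 0.21), Lhx2 without T9 plate 1 (range -0.52 to 0.66) and Msx1 without T9 plate 3 (range -0.01 to 1.17). By Scx, Alx1 turned at T3 without T3 plate 3 (range -0.58 to 0.41) and Prrx1 at T9 after thinning (-0.01). By Msx1, Alx1 turned without T0 plate 1 (range -0.12 to 0.54). By Msx2, Alx4 turned without epithelial-marker wells (0.10) and without T0 plate 1 (range -0.43 to 0.15), and Msx1 without T0 plate 2 (range -0.06 to 0.52).

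Thinning lowers detection by construction. Shares of wells after it were, at T0, 21.7% for Msx1, 13.3% for Msx2, 5.98% for Alx1, 9.24% for Alx4, 9.69% for Lhx2, 0.375% for Lhx9, 0.281% for Lmx1b, 62.1% for Prrx1 and 27.9% for Prrx2. At T3 they were 0.568% for Lhx2, 0% for Lhx9 and 37.0% for Prrx1. At T6 they were 0.281% for Msx1, 0.725% for Msx2, 5.00% for Alx1, 5.78% for Alx4, 0.185% for Lhx2, 0.0889% for Lhx9, 41.2% for Prrx1 and 17.1% for Prrx2. At T9 they were 0.813% for Msx2, 5.13% for Alx1, 40.6% for Prrx1 and 13.6% for Prrx2. With at least 1000 genes a well, Msx1 was in 42.4% of T0 wells. Few UMIs limit what can be read of Msx1, Msx2 and Lhx2 after T3, and of Lhx9 and Lmx1b throughout.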
